A study of Mus musculus with 33 samples.

Results

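Astrocytes are the glial cells that clear glutamate from synapses, buffer potassium and water, and supply neurons with metabolites. Around amyloid deposits they are known to take on a reactive state, in which the intermediate filament genes Gfap and Vim and a group of secreted, receptor and surface genes rise. The 35 genes described here are 21 astrocyte identity genes, which mark the cell type, and 14 reactive genes, kept apart throughout. They were taken as a named list, by symbol, out of 38355 genes in the count files and 40678 loci in the FPKM files, and all 35 were found in both. Levels in the aged mice are read counts scaled to library size (CPM) and levels in the young mice are fragments scaled to gene length and library size (FPKM), both from bulk RNA of hippocampal area CA1.

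The study asked whether JQ1, an inhibitor of BET bromodomain proteins, which read acetylated histones, changes the brain of normal and amyloid-bearing mice. The aged mice were females of 8 to 10 months. Those of the APP/PS1-21 line, called APP mice here, carry mutant APP under the neuronal Thy1 promoter, on a C57B/6 background. They received JQ1 at 50 mg per kg by intraperitoneal injection for 10 days (6 mice) or vehicle with 10% DMSO (6 mice). Aged WT mice received the same vehicle (4 mice analysed of 5 labelled, the other not analysed here), and their strain label also names the APP/PS1-21 line while their titles call them WT. Young WT males of 3 months (C57B/6JRj) received JQ1 at 50 mg per kg (8 mice) or vehicle (8 mice) for 13 days. CA1 was dissected under a microscope after water maze testing, so all mice shared that training.

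Aged libraries held 14605459 to 25339482 reads on genes, so that 3 reads corresponded to at most 0.205 CPM, a floor that covers counting error only. The young files give no counts and their depth is unknown. Per length, the CA1 gene Wfs1 stood at 42.2 to 90.7 CPM per kilobase in the aged tissue and the dentate gyrus gene Prox1 at 2.32 to 9.86.

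The library labelled JQ1-treated APP replicate 4 went against its APP label. Thy1 was at 819.8 CPM in it, against 1618 to 2342 in the other 11 APP libraries and 841 to 1070.3 in the aged WT libraries. App was at 1781 CPM against 2070.1 to 2716 in the other APP libraries and 1854 to 1992 in WT. Lnpep and Gucy1a2, chosen after their values were seen, stood in it at 30.5 and 13.6 CPM, near the other JQ1-treated APP libraries (23.4 to 41.6 and 9.03 to 13.6) and above every vehicle library (at most 8.85 and 2.58). Counts of members called in the JQ1-treated APP group, and the genes they turn on, are given with and without it. Aged WT replicate 4 held Ttr, the main choroid plexus transcript, at 3065 CPM against 9.44 to 21.3 in the other WT libraries.

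Promoter windows of 3 members are shown first, because Gfap and Aspg were both higher in APP mice than in WT mice below and Aldh1l1 is the identity marker beside them. Each runs from 250 bases before to 10 bases after a RefSeq start (GRCm38.p6), in the direction of transcription. Gfap (ENSMUSG00000020932) spans chr11:102887336-102900912 (minus strand), Aspg (ENSMUSG00000037686) chr12:112106679-112127559 (plus strand) and Aldh1l1 (ENSMUSG00000030088) chr6:90486427-90600203 (plus strand). The Gfap window lies at chr11:102897191-102897450 on the minus strand, and 250 of its bases are intronic in the GENCODE gene. Its capitals mark TTCNNNGAA, letters bound by STAT factors, whose match begins 2 bases before the start. The Aspg window lies at chr12:112106433-112106692 on the plus strand, with 14 exonic bases and the rest upstream of the gene. The Aldh1l1 window lies at chr6:90550543-90550802 on the plus strand, with 246 intronic and 14 exonic bases.
Gfap: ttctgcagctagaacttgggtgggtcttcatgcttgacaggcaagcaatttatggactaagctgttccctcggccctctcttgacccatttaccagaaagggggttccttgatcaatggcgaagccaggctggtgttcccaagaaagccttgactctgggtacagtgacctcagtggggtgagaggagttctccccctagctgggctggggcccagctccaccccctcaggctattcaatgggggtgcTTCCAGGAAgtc
Aspg: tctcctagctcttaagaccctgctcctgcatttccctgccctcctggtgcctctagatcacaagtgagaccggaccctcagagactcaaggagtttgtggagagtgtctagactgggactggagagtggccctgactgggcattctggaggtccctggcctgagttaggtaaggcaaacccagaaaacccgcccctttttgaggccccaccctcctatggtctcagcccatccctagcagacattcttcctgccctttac
Aldh1l1: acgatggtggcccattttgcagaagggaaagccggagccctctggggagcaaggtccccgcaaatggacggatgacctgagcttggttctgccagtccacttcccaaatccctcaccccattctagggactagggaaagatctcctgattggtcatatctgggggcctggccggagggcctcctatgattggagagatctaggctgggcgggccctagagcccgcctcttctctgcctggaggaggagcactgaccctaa
Windows were held for 31 of the 35 members, and Aqp4, Sox9, Atp1b2 and S100a10 had none. TTCNNNGAA stood in a window of 2 of 13 reactive members (Gfap and Steap4) and 2 of 18 identity members (Slc1a3 and Aldoc), against 7.33% of all 32851 windows. TGANTCA, the AP-1 letters, stood in 2 of 13 reactive members (Osmr and Cp) and 1 of 18 identity members (Gja1), against 7.03% of all windows. Both motifs read the same on either strand, and a match is a description of letters only.

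In WT tissue the identity genes were the abundant ones. Per length, Glul, which makes glutamine from glutamate, and Aldoc, a glycolytic aldolase, ranked 1 and 2 of the 35 in both tables. Glul stood at 366 ± 29.3 CPM per kilobase (SD, n = 4) in aged WT mice and at 697 ± 40.6 FPKM (SD, n = 8) in young vehicle-treated mice. Aldoc stood at 298 ± 28.8 CPM per kilobase and 661 ± 27.7 FPKM, so in the young mice the order of this pair lay within the spread. Ndrg2 and the glutamate transporter Slc1a2 took the next places, in opposite order in the 2 tables. Gfap ranked 10 in aged WT at 70.0 ± 7.96 CPM per kilobase, within the spread of Serpina3n above it (71 ± 2.48) and beyond that of the transporter gene Slc6a11 below it (25.6 ± 2.42). Aldh1l1, a folate enzyme and pan-astrocyte marker, lay at 10.1 ± 0.633 CPM per kilobase and 18.4 ± 1.52 FPKM. The lowest were the reactive genes Osmr, Timp1, Cd44, Steap4 and Lcn2, from 0.468 down to 0.0529 CPM per kilobase in aged WT. Serpina3n was at rank 9 in aged WT and rank 25 in the young mice. The tables were normalized separately and differ in age and sex, so no test between them was made.

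The members that were higher in vehicle-treated APP mice than in aged WT mice were mainly reactive genes. Of 14 reactive genes 6 were higher and 0 lower (edgeR quasi-likelihood test, adjusted p under 0.05), with a median log2 fold change of 2.21. Of 21 identity genes 1 was higher and 0 lower, with a median of 0.19. Over all 16962 genes tested, 2.49% were higher and the median was 0.01. In bulk tissue, a change in the number of cells of a type and a change in RNA per cell cannot be told apart.

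**Figure D1:**
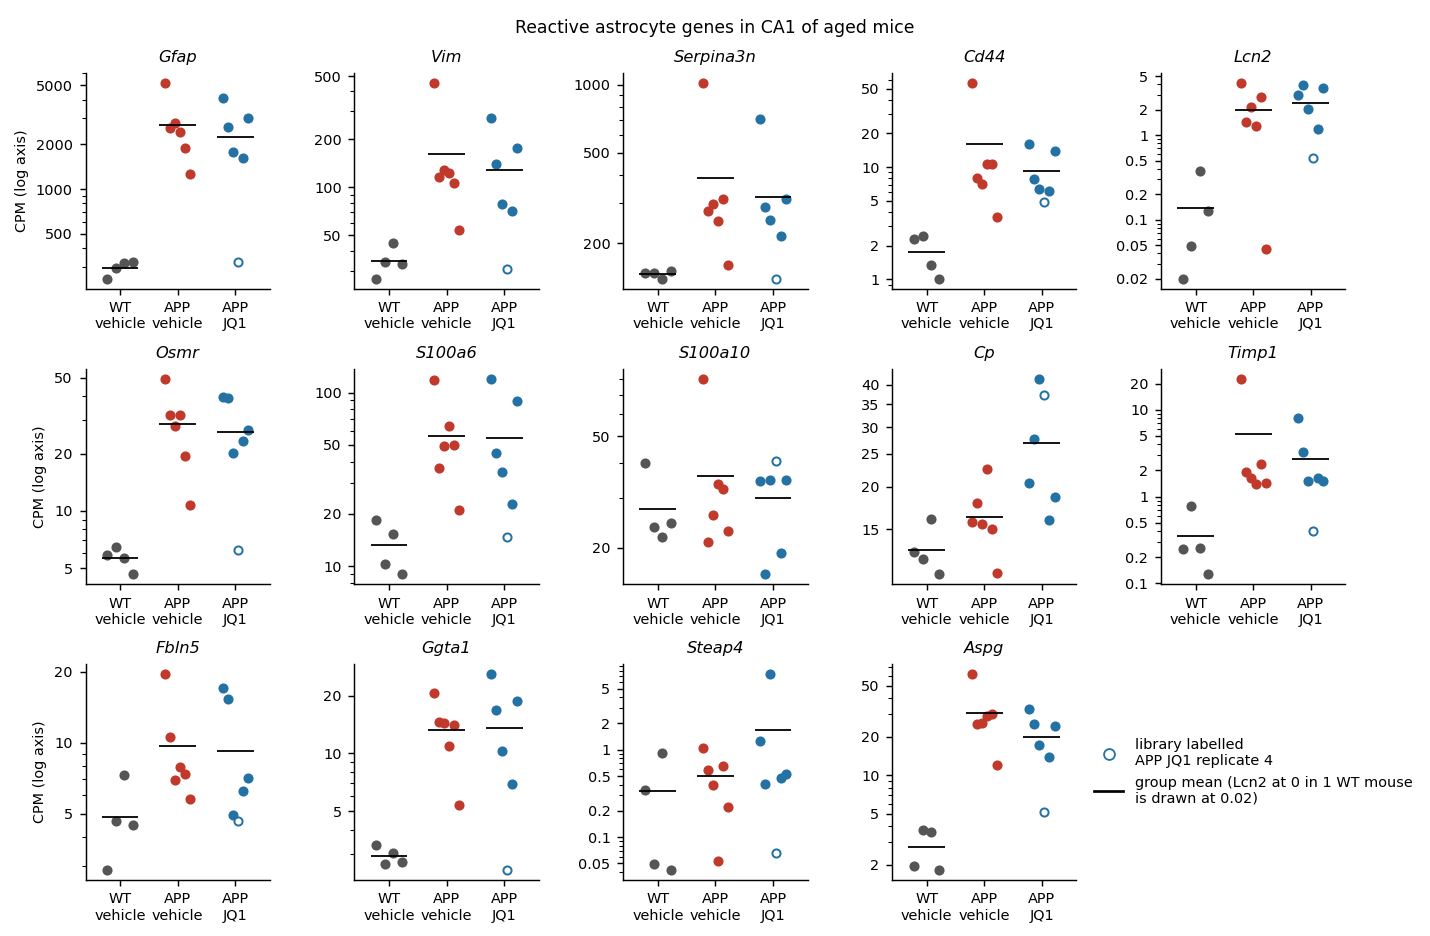
CPM on a log axis of the 14 reactive genes in each aged mouse; points are mice, lines are group means, and the open circle is the library labelled JQ1-treated APP replicate 4. In Gfap the 6 vehicle-treated APP mice lay between 1262 and 5166 CPM and the 4 WT mice between 249 and 321; the Lcn2 value of 0 in 1 WT mouse is drawn at the foot of its panel.

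Gfap, which encodes the main filament protein of reactive astrocytes, stood at 249, 293, 319 and 321 CPM in the WT mice and at 1262 to 5166 (median 2498) in the vehicle-treated APP mice. Every APP mouse lay above every WT mouse, and the fitted difference was 9.08-fold (log2 3.18 ± 0.58 SE, 95% interval 1.95 to 4.42, edgeR adjusted p = 0.00993). An exact two-sided permutation test on log2 CPM gave p = 0.00476, the smallest that 6 against 4 mice allow. Aspg, an asparaginase gene, stood at 1.82, 1.94, 3.58 and 3.72 CPM in WT and at 11.9 to 61.9 (median 27.4) in APP. It was 11.1-fold higher (log2 3.47 ± 0.54, edgeR adjusted p = 0.00828), and the groups did not overlap.

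Both receptor genes were higher as well. Osmr, the oncostatin M receptor subunit that signals with gp130 through STAT3, was at 4.65, 5.65, 5.88 and 6.5 CPM in WT and at 10.7 to 49.5 (median 29.8) in APP, 5.03-fold higher (log2 2.33 ± 0.47, edgeR adjusted p = 0.0144). The hyaluronan receptor gene Cd44 was at 1.01, 1.35, 2.29 and 2.45 CPM in WT and at 3.61 to 56.1 (median 9.4) in APP, 9.09-fold higher (log2 3.18 ± 0.75, edgeR adjusted p = 0.0371). Neither gene overlapped between the groups, and the highest Cd44 value was that of replicate 1, the other 5 APP mice being at 10.8 or less. Without that mouse the Cd44 difference was log2 2.19.

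Ggta1, which encodes a galactosyltransferase, was at 2.64, 2.7, 3.04 and 3.34 CPM in WT and at 5.35 to 20.7 (median 14.2) in APP, 4.54-fold higher without overlap (log2 2.18 ± 0.51, edgeR adjusted p = 0.033). Lcn2, a secreted siderophore-binding lipocalin, was at 0, 0.0489, 0.127 and 0.379 CPM in WT, which is 0, 1, 3 and 9 reads, and at 0.0445 to 4.15 (median 1.79) in APP. Its fitted difference was log2 3.73 ± 0.94 (edgeR adjusted p = 0.0424), a size that rests on these few WT reads and was 4.87 without WT replicate 4. The groups overlapped, because vehicle-treated APP replicate 6 held 1 read.

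The other 8 reactive genes did not pass the threshold. Timp1, an inhibitor of matrix metalloproteases, had the largest fitted difference of the 14 (log2 3.90 ± 1.14, edgeR adjusted p = 0.0991) at 0.127, 0.249, 0.253 and 0.783 CPM in WT and 1.4 to 22.9 (median 1.79) in APP. Its groups did not overlap, but the top value was that of replicate 1 and the next APP mouse stood at 2.37. Without replicate 1 its difference was log2 2.31 and that of Vim 1.61. The filament gene Vim (log2 2.24 ± 0.66, adjusted p = 0.109), the calcium-binding S100a6 (2.09 ± 0.62, adjusted p = 0.11) and the protease inhibitor Serpina3n (1.40 ± 0.52, adjusted p = 0.221) also had no overlap between the groups in this edgeR comparison. Fbln5, Steap4, S100a10 and Cp had log2 fold changes of 1.0, 0.52, 0.39 and 0.32 with overlapping groups, and the lowest edgeR adjusted p among them was 0.295. Steap4 had 1.75 without WT replicate 4, and S100a10 -0.02 without vehicle-treated APP replicate 1. In all, 9 of the 14 reactive genes and 5 of the 21 identity genes had every APP mouse above every WT mouse, against 4.94% of all genes tested.

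Among identity genes Sox9, a transcription factor that marks astrocyte nuclei, passed the threshold. It stood at 16.4, 17.2, 17.3 and 21.7 CPM in WT and at 25.7 to 37.2 (median 30.1) in APP, 1.72-fold higher with no overlap (log2 0.78 ± 0.16, edgeR adjusted p = 0.0102). Aldh1l1 was at 42.5, 43.4, 47.9 and 47.9 CPM in WT and 51.4 to 96.7 (median 61.5) in APP, also without overlap, but at log2 0.53 ± 0.16 its edgeR adjusted p was 0.0966.

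The other 5 identity genes with a fitted difference above that of S100b (0.45) did not pass. The water channel gene Aqp4 stood at 80.9, 87, 92.9 and 101 CPM in WT and 112 to 187 (median 139) in APP (log2 0.65 ± 0.19, edgeR adjusted p = 0.089). Mlc1, a membrane protein of astrocyte endfeet, had log2 0.57 ± 0.17 (edgeR adjusted p = 0.0839) and the sodium pump subunit Atp1b2 log2 0.50 ± 0.16 (adjusted p = 0.126), and the groups of all 3 genes were apart. Id3, an inhibitor of DNA binding that responds to BMP signals, was at 19.1, 23.9, 25 and 31.7 CPM in WT and 29.5 to 52.6 (median 45.9) in APP (log2 0.79 ± 0.26, edgeR adjusted p = 0.14). Itih3 had log2 0.79 ± 0.36 (edgeR adjusted p = 0.331), at 24.4, 29.5, 33.6 and 36.3 CPM in WT and 33.1 to 128 (median 40.2) in APP, where replicate 1 gave the top value and the others reached at most 43.5.

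The gap junction gene Gja1 stood at 153, 155, 161 and 237 CPM in WT and 100.4 to 209.8 (median 178) in APP, with a log2 fold change of -0.06 and a 95% interval of -0.45 to 0.32. The bicarbonate transporter gene Slc4a4 had -0.06 (-0.37 to 0.26), at 141, 147, 164 and 168 CPM in WT and 116 to 174 (median 158) in APP. For Slc1a3, the glutamate transporter GLAST, it was 0.27 (0.03 to 0.52, edgeR adjusted p = 0.28), at 616, 616, 664 and 676 CPM in WT and 645 to 882 (median 781) in APP. These 3 genes overlapped between the groups. The remaining 11 identity genes, Slc1a2, Glul, Aldoc, Ndrg2, Fgfr3, S100b, Gjb6, Slc7a10, Slc6a11, Gpc5 and Fabp7, lay between -0.20 (Gpc5) and 0.45 (S100b).

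**Figure D2:**
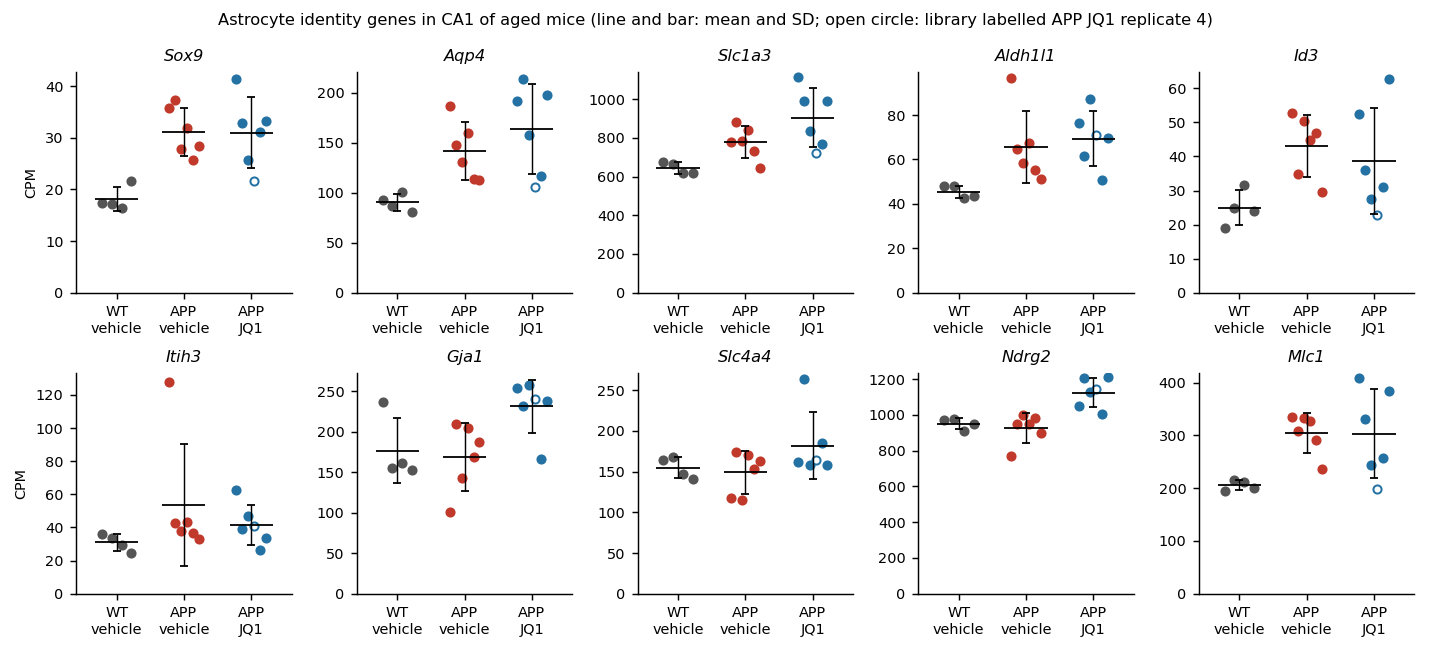
CPM of 10 identity genes in each aged mouse, with points for mice, lines and bars for the group mean and SD, and an open circle for the library labelled JQ1-treated APP replicate 4. Sox9 stood at 16.4 to 21.7 CPM in WT and 25.7 to 37.2 in vehicle-treated APP mice, while the Gja1 groups overlapped.

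The number of members called depended on single mice. The library labelled JQ1-treated APP replicate 4 enters this comparison only through the shared spread, normalization and filter. Without it, 10 members were higher, 6 reactive and 4 identity, against 3.32% of all genes. The 3 added were Aqp4, Mlc1 and Atp1b2 (edgeR adjusted p = 0.0376, 0.0274 and 0.0444). Without WT replicate 1, 3, 4 or 5 the count was 1, 2, 3 and 3, and without vehicle-treated APP replicate 5 it was 4. Calls over all genes fell as well, from 436 to 154, 186, 244, 214 and 336 in these fits. Over the 16 fits that leave out 1 mouse, Aspg was called in 16, Gfap in 15, Sox9 in 13, Osmr in 12, Cd44 in 11, Ggta1 in 8 and Lcn2 in 5. The log2 difference of Gfap stayed between 2.89 and 3.33 in these fits and that of Aspg between 3.14 and 3.63.

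Between JQ1- and vehicle-treated APP mice no member passed the threshold. Of 35 genes tested, 0 had an edgeR adjusted p under 0.05 and 7 had an unadjusted p under 0.05, while 1.08% of all genes passed. The DESeq2 Wald test called Ndrg2 and Cp higher with JQ1 (adjusted p = 0.00462 and 0.0255), against 5.24% of all genes. The median log2 fold change was -0.20 over the reactive and 0.12 over the identity genes, against 0.00 over all genes. Ndrg2 and Gpc5, 2 of the 35, were higher in every JQ1-treated mouse than in every vehicle-treated mouse, against 2.03% of genes apart in either direction.

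Gfap stood at 322 to 4076 (median 2199.6) CPM in the JQ1-treated APP mice, a log2 difference of -0.26 (95% interval -1.23 to 0.70, edgeR adjusted p = 0.808) from vehicle. The lowest value was that of the library labelled replicate 4, and without it the mice lay at 1609.6 to 4076 (median 2633) and the difference was -0.03 (-0.70 to 0.63, edgeR adjusted p = 0.977). These intervals leave room for a change in either direction. Aldh1l1 stood at 50.6 to 87.3 (median 70.2) CPM, with a difference of 0.08 (-0.21 to 0.37), and 0.08 (-0.24 to 0.40) without replicate 4.

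Cp, the copper-carrying ferroxidase ceruloplasmin, had the lowest p of the reactive genes. It stood at 16 to 41.7 (median 24.1) CPM with JQ1 and 11.1 to 22.5 (median 15.6) with vehicle, with overlap, a log2 difference of 0.72 ± 0.22 (0.26 to 1.18, edgeR adjusted p = 0.107). The library labelled replicate 4 was the second highest at 37.2, and without it the difference was 0.61 (0.15 to 1.08, edgeR adjusted p = 0.226). Replicates 3 and 4, the highest in Cp, also held the most Ttr of the group, 115 and 85.2 CPM against 35 or less in the other 4. Vehicle-treated replicate 4, with the highest Cp of its group (22.5 CPM), likewise held Ttr at 75 against 9.27 or less in the other 5. Aged WT replicate 4, with Ttr at 3065 CPM, Kl at 63.6 and Clic6 at 26.1, held Cp at 16.1. Kl and Clic6 did not follow Ttr in the APP libraries. In JQ1-treated replicates 3 and 4 Kl was at 26.2 and 22.9 CPM, against 27.7 in replicate 5. Clic6 was the lowest of the group in replicate 3 (0.316) and the highest in replicate 4 (1.33). In vehicle-treated replicate 4 they stood at 23.6 and 0.754, against group maxima of 28.9 and 1.18. The part of choroid plexus in the JQ1 difference was not tested.

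Among the other reactive genes the largest fitted differences were those of low genes in which 1 mouse stood high. Steap4, a metalloreductase gene, had log2 1.73 ± 0.90 (edgeR adjusted p = 0.337), at 0.0666 to 7.34 (median 0.504) CPM with JQ1, 0.0539 to 1.06 (median 0.492) with vehicle and 0.0422, 0.0489, 0.349 and 0.928 in WT, and JQ1-treated replicate 3 alone exceeded 1.25. Without that mouse the Steap4 difference was 0.17. Timp1 had -0.92 ± 0.81 (edgeR adjusted p = 0.595) at 0.40 to 8.11 (median 1.59) CPM and Cd44 -0.80 ± 0.57 (adjusted p = 0.501) at 4.93 to 16 (median 7.12), both against a vehicle group topped by replicate 1. Without vehicle-treated replicate 1 the fitted value turned from below to above 0 in 9 reactive genes and in Itih3, with 0.66 for Timp1, 0.20 for Cd44, 0.31 for S100a6, 0.30 for Serpina3n, 0.28 for Vim, 0.27 for Fbln5, 0.14 for S100a10, 0.09 for Osmr, 0.03 for Gfap and 0.10 for Itih3, and no member was called. Sox9, S100b and Mlc1, at most 0.04 from 0 in either fit, turned too. Aspg had -0.62 (-1.48 to 0.24) with 5.13 to 32.9 (median 20.9) CPM, and -0.42 (-1.15 to 0.31) without the library labelled JQ1-treated replicate 4. Osmr, Ggta1 and Lcn2 had -0.14, 0.03 and 0.26, and 0.07, 0.25 and 0.47 without it. The remaining 5, Vim, Serpina3n, S100a10, Fbln5 and S100a6, lay between -0.35 (Vim) and -0.05 (S100a6). Leaving the library labelled replicate 4 out moved the median of the reactive genes from -0.20 to 0.02, and 0.431% of all genes and 0 members (8 at an unadjusted p under 0.05) then passed.

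Among identity genes Gja1 had the largest difference, at 166 to 257 (median 239) CPM with JQ1 against the vehicle values above (log2 0.46 ± 0.16, 95% interval 0.11 to 0.80, edgeR adjusted p = 0.162). Ndrg2, which encodes an astrocyte protein of the N-myc downstream regulated family, had the lowest p (0.28 ± 0.07, 0.13 to 0.44, edgeR adjusted p = 0.0687), at 1007 to 1213 (median 1138) CPM against 769.9 to 1001 (median 949.7). Without JQ1-treated replicate 5, and likewise without WT replicate 1, Ndrg2 passed as the 1 member called (lowest edgeR adjusted p = 0.0486), while 205 and 446 genes passed in all, against 184 with all mice. Slc4a4 had 0.29 ± 0.13 (edgeR adjusted p = 0.265) at 158 to 264 (median 163) CPM, with replicate 2 at the top, and Itih3 -0.37 ± 0.32 (adjusted p = 0.586) at 26.4 to 62.5 (median 39.8) CPM. Gpc5, a glypican, had 0.23 ± 0.08 (edgeR adjusted p = 0.152), at 44.2 to 53.9 (median 46.1) CPM against 37.3 to 43.4 (median 40.9). The other 15 identity genes beside Aldh1l1 lay between -0.22 (Slc7a10) and 0.22 (Slc1a3).

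**Figure D3:**
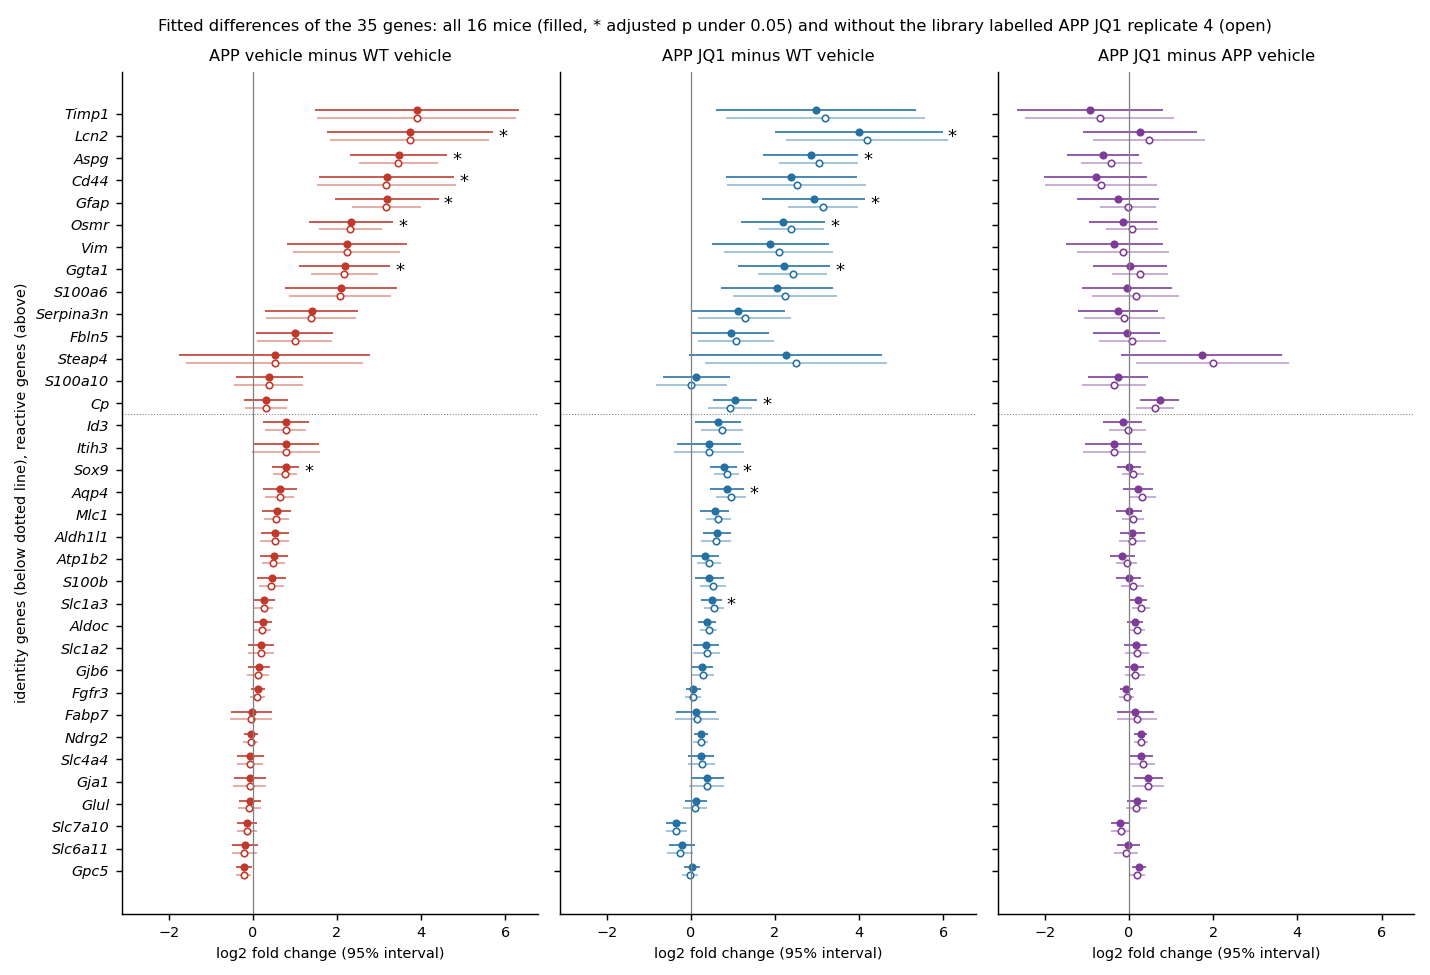
Fitted log2 fold changes with 95% intervals of the 35 genes in the 3 aged comparisons, identity genes below the dotted line and reactive genes above, with filled circles for all 16 mice, open circles without the library labelled JQ1-treated APP replicate 4, and asterisks for adjusted p under 0.05. Asterisks mark 7 genes in the left panel, 9 in the middle and 0 in the right.

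Against aged WT, 9 members were higher in JQ1-treated APP mice, 6 of them reactive. Of the 14 reactive genes 0 were lower, with a median log2 fold change of 2.20, and of the 21 identity genes 3 were higher and 0 lower, with a median of 0.35. Of all genes 1.93% were higher, with a median of 0.00. This comparison shares its WT mice with the one between vehicle-treated APP and WT mice, and its JQ1-treated mice with the one above. Gfap was 7.56-fold higher (log2 2.92 ± 0.57, edgeR adjusted p = 0.0186) and Aspg 7.2-fold (2.85 ± 0.53, adjusted p = 0.0148). Osmr, at 6.26 to 39.5 (median 25) CPM, was 4.57-fold higher (edgeR adjusted p = 0.0259), and Ggta1, at 2.47 to 25.9 (median 13.6) CPM, 4.63-fold (adjusted p = 0.0355). In Osmr the library labelled replicate 4 fell inside the WT range and in Ggta1 below it.

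Lcn2 stood at 0.533 to 3.95 (median 2.5) CPM, above every WT mouse (log2 4.0 ± 0.94, edgeR adjusted p = 0.0353), again over few WT reads, and without WT replicate 4 it had 5.14 and did not pass. Cp, at 11, 12.3, 12.8 and 16.1 CPM in WT, was 2.06-fold higher (log2 1.04 ± 0.25, edgeR adjusted p = 0.0379). Cd44 (log2 2.39 ± 0.73, edgeR adjusted p = 0.125) and Timp1 (2.98 ± 1.11, adjusted p = 0.221) did not pass, and Timp1 had 2.25 without JQ1-treated replicate 1. The other 6 reactive genes lay between 0.12 (S100a10) and 2.25 (Steap4), and Steap4 had 0.69 without JQ1-treated replicate 3.

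The 3 identity genes called were Sox9, Aqp4 and Slc1a3. Sox9 stood at 21.6 to 41.5 (median 32) CPM, 1.71-fold above WT (edgeR adjusted p = 0.0167), and Aqp4 at 106 to 214 (median 175), 1.81-fold above (adjusted p = 0.0259). Slc1a3 stood at 722 to 1115 (median 913) CPM, 1.4-fold above WT (log2 0.49 ± 0.12, edgeR adjusted p = 0.0329). Aqp4 and Slc1a3 did not overlap with WT, and Sox9 did through the library labelled replicate 4. Aldh1l1 had log2 0.61 ± 0.16 (edgeR adjusted p = 0.0553) without overlap, and Id3 0.64 ± 0.26 (adjusted p = 0.256) at 22.9 to 62.6 (median 33.6) CPM. The other 16 identity genes lay between -0.36 (Slc7a10) and 0.56 (Mlc1).

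Without the library labelled replicate 4, the 9 members called and 2 more, Aldoc and Mlc1, were higher, against 3.6% of all genes, and the median of the reactive genes was 2.40. Gfap was then 8.81-fold above WT (log2 3.14 ± 0.38, edgeR adjusted p = 2.05e-04). The other reactive genes called stood then at 8.22-fold (Aspg), 5.23-fold (Osmr), 5.35-fold (Ggta1), 1.9-fold (Cp) and log2 4.20 (Lcn2). The identity genes Sox9, Aqp4 and Slc1a3 stood at 1.8-fold, 1.93-fold and 1.45-fold. With all mice, 4 reactive and 5 identity genes had every JQ1-treated APP mouse above every WT mouse, against 2.55% of all genes, and without that library 10 and 8, against 5.87%. The count of called members was 4, 3 and 5 without JQ1-treated replicate 1, 2 or 6, and 0 without WT replicate 3, 4 or 5. Calls over all genes were 198, 183 and 222 and then 25, 30 and 11 in these fits, against 349 with all mice. Without WT replicate 1 the member count was 1 of 153 genes in all, the amino acid transporter gene Slc7a10, which was lower (log2 -0.49, edgeR adjusted p = 0.0386). Over all 16 such fits the Gfap difference was at least 2.65 and its adjusted p at most 0.0798.

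Mice of a group differed from each other mainly in the reactive genes. Averaged over the 14, vehicle-treated APP mice stood 0.71 (replicate 6) to 3.24 (replicate 1) above the WT mean on the log2 scale. JQ1-treated mice stood 0.41 above it in the library labelled replicate 4 and 1.31 to 2.74 in the others, and WT mice between -0.29 and 0.32. For the 21 identity genes the same averages ran from 0.12 to 0.32 in vehicle-treated and from 0.13 to 0.48 in JQ1-treated APP mice. Vehicle-treated replicate 1 was the highest of its group in 13 of 14 reactive genes and replicate 6 the lowest in 11. Among the 21 identity genes replicate 1 was the highest in 7 and the lowest in 6, with Glul at 758 CPM against 1186 to 1304 in the other 5. The library labelled JQ1-treated APP replicate 4 was the lowest of its group in 12 of 14 reactive genes, and in 7 of them it lay inside the WT range.

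**Figure D4:**
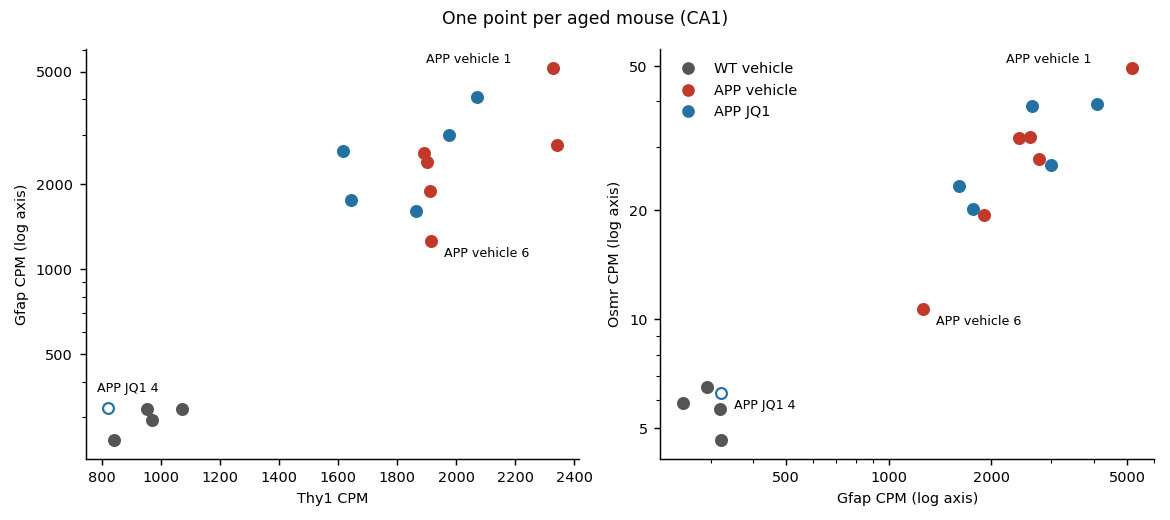
Each point is 1 aged mouse. Left, Gfap CPM against Thy1 CPM; right, Osmr CPM against Gfap CPM; the open circle, the library labelled JQ1-treated APP replicate 4, lies at 819.8 Thy1 and 322 Gfap, beside the 4 WT mice, and the other 11 APP mice are at 1262 Gfap or more.

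In young WT mice no member passed the threshold with JQ1. Of the 32 members tested, 0 passed (limma on log2(FPKM + 0.1), lowest adjusted p = 0.981) and 5 had an unadjusted p under 0.05, while 0.00543% of 18420 loci, which is 1 locus, passed. No member separated the groups, against 0.0271% of loci. The median log2 fold change was -0.08 over the 21 identity genes, 16 of them below 0, and -0.02 over the 11 reactive genes tested, against 0.00 over all loci.

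Gfap stood at 69.2 to 117 (median 93.5) FPKM with JQ1 and 85.1 to 109 (median 92.9) with vehicle, a difference of -0.04 with a 95% interval of -0.24 to 0.16 on that scale. Aldh1l1 stood at 13 to 20.5 (median 16) FPKM and 15.6 to 20.8 (median 18.2), a difference of -0.20 (-0.36 to -0.04, limma unadjusted p = 0.0153, adjusted p = 0.981). The others with an unadjusted p under 0.05 were S100b (-0.16), Slc4a4 (-0.16), Glul (-0.09) and the fatty acid carrier Fabp7 (-0.26). Sox9, Aqp4 and Slc1a3 had 0.10 (-0.05 to 0.25), -0.08 (-0.27 to 0.11) and -0.12 (-0.26 to 0.03). Osmr, Ggta1 and Aspg had -0.08, -0.16 and -0.32, on a scale that understates changes of low genes.

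The filter on low values removed 3 reactive genes in the young mice. Lcn2 stood at 0.0526 to 1.39 (median 0.0891) FPKM with JQ1 and 0 to 0.709 (median 0.11) with vehicle. Timp1 stood at 0.278 to 0.782 (median 0.474) and 0.142 to 0.79 (median 0.406), and Steap4 at 0 to 0.231 (median 0.0362) and 0.013 to 0.135 (median 0.0592). The groups overlapped in all 3.

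**Figure D5:**
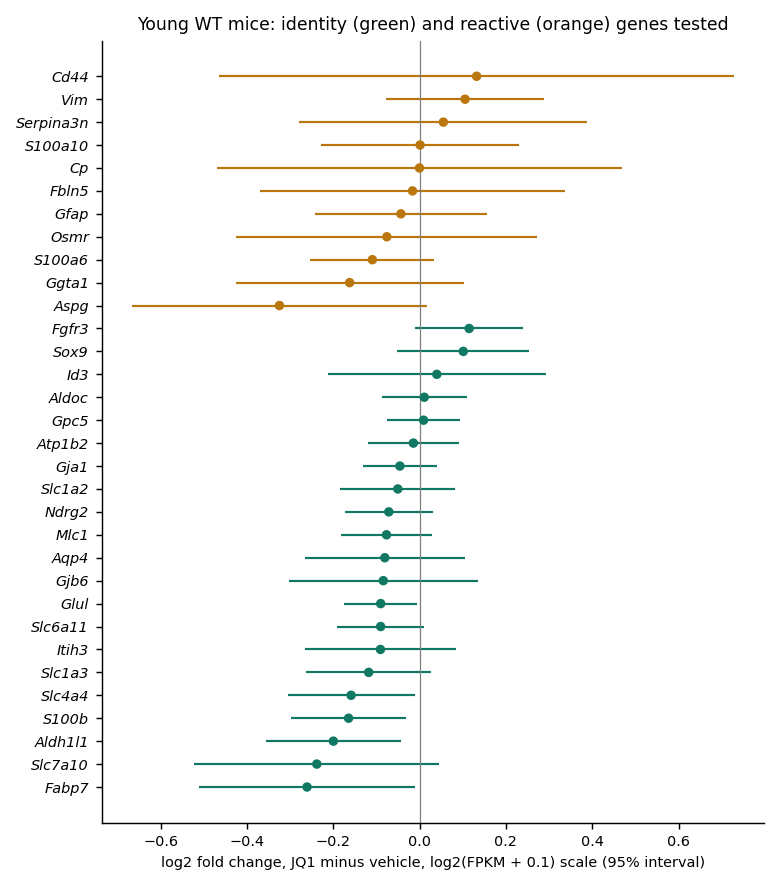
Fitted log2 fold changes, JQ1 minus vehicle, with 95% intervals, of the 21 identity genes (green) and the 11 reactive genes (orange) tested in 16 young WT mice, on the log2(FPKM + 0.1) scale. Fitted values run from -0.32 (Aspg) to 0.13 (Cd44).

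Other genes listed as astrocyte identity or reactive genes, in lists that share no gene with the 35, were compared in the same way. The cell type behind their values was not tested, and most microglia markers were higher in APP mice too, as given below. Of 33 further reactive genes tested, 10 were higher and 0 lower in vehicle-treated APP mice than in WT, with a median of 1.24. Over all genes tested in this comparison 2.49% were higher. The 6 with the lowest adjusted p were the endotoxin co-receptor gene Cd14 (log2 2.90 ± 0.43, edgeR adjusted p = 0.00828), the complement gene C4b (3.61 ± 0.55, adjusted p = 0.00828), the proteoglycan gene Srgn (1.45 ± 0.28), the MHC class I gene H2-D1 (2.01 ± 0.36), the proteasome subunit gene Psmb8 (1.89 ± 0.37) and the complement inhibitor gene Serping1 (1.5 ± 0.33, adjusted p = 0.0188). H2-D1 can share reads with other class I genes, which makes its value uncertain. Of 36 further identity genes 1 was higher, the urea transporter gene Slc14a1 (1.52 ± 0.30, edgeR adjusted p = 0.0113), and 1 lower, the thyroid hormone transporter gene Slco1c1 (-0.47 ± 0.11, adjusted p = 0.0253), with a median of 0.05. The 1 higher of 36 lay near the share over all genes. Of 13 genes tested of the gp130 and STAT3 pathway, through which Osmr signals, Stat3 (0.99 ± 0.22, edgeR adjusted p = 0.0224) and the receptor gene Il6ra (0.76 ± 0.18, adjusted p = 0.0274) were higher.

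Between the APP groups these 3 lists held 1 called gene, Acsl3, a fatty acid activating enzyme (log2 0.32 ± 0.07, edgeR adjusted p = 0.025), higher with JQ1. That count lay near the share over all genes, which was 1.08%. At an unadjusted p under 0.05 were 4 other reactive, 8 other identity and 4 pathway genes. DESeq2 called 1, 1 and 0, against 5.24% of all genes. Between the young groups the 3 lists held 0 by limma, against 0.00543% of all loci, with 2, 2 and 1 at an unadjusted p under 0.05. JQ1-treated APP mice were above WT in 5 of the 33 reactive genes (C4b, Cd14, Srgn, Psmb8 and Serping1) and 2 of the 36 identity genes, the latter Slc14a1 (1.44 ± 0.30, edgeR adjusted p = 0.0215) and the apolipoprotein gene Clu (0.89 ± 0.19, adjusted p = 0.0234), and in 0 of the 13 pathway genes, where 5 had an unadjusted p under 0.05 and DESeq2 called 3. Of all genes 1.93% were higher by edgeR in this comparison. DESeq2 called 800 genes in all there, against 349 by edgeR. Without the library labelled replicate 4 the edgeR counts of the 3 lists were 10, 2 and 3, against 3.6% of all genes.

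Most microglia markers were higher in APP mice than in WT. Their sum and the sum of the 14 reactive genes were both lowest in vehicle-treated replicate 6 and in the library labelled JQ1-treated replicate 4. The reactive sum was highest in replicate 1 of both APP groups. The microglia sum was highest in vehicle-treated replicate 3 and JQ1-treated replicate 6. Of 14 markers 11 were higher in vehicle-treated APP mice than in WT and 0 lower, against 2.49% of all genes higher. The median of the 14 was 1.44, and their summed level was 975 to 1904 CPM against 424 to 475 in WT. The 6 with the lowest adjusted p were Cst7 (log2 8.40 ± 1.25, edgeR adjusted p = 0.00828), Itgax (5.93 ± 0.87), Tyrobp (3.17 ± 0.49), Trem2 (2.78 ± 0.47), C1qb (2.33 ± 0.39) and C1qa (2.51 ± 0.43, adjusted p = 0.00879). In JQ1-treated APP mice 9 were higher than in WT, and 13 without the library labelled replicate 4, against 1.93% and 3.6% of all genes. The sum was 475 to 1848 CPM, lowest in that library. Between the APP groups 0 of the 14 passed by edgeR or DESeq2, and 0 had an unadjusted p under 0.05. Cst7 and Itgax, markers of plaque-associated microglia, stood at 13.7 to 55.6 and 9.0 to 37.3 CPM in vehicle-treated APP mice, at most 0.245 and 0.506 in WT, and at 0 and 0.333 in the library labelled replicate 4. The part of microglia in the reactive gene values was not tested.

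Of 9 endothelial, 10 mural and meningeal, 11 oligodendrocyte and 12 neuron markers 0 passed in any of the 3 aged comparisons by edgeR or DESeq2, at most 4 of a list having an unadjusted p under 0.05, and the neuron sum was 10421 to 11778 CPM in vehicle-treated APP mice against 12097 to 13286 in WT, whose part in the members' values was not tested. Of 7 choroid plexus and ependymal markers tested 0 passed by either tool, with at most 4 at an unadjusted p under 0.05, and their sum was 3186 CPM in aged WT replicate 4, against a WT median of 48. Among the 35 members, that mouse was the highest WT mouse in Lcn2, Vim, Fbln5, Steap4, Cp, Aqp4, Slc7a10 and Id3. It was the lowest WT mouse in Slc1a2, Slc1a3, Aldh1l1, Gjb6, Glul, Sox9, Ndrg2, Slc6a11, Gpc5, Serpina3n and S100a10. The part of that tissue in these values was not tested. Leaving out this library and that labelled JQ1-treated APP replicate 4 together, a setting chosen after seeing the data, 6 members were called in vehicle-treated APP mice against WT, all among the 7 above. The same setting gave 0 between the APP groups and 9 in JQ1-treated APP mice against WT, 8 of them among the 9 above. Of the 17196 genes tested in this setting, 485, 57 and 493 were called in these 3 comparisons.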

How the data were processed

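The aged samples are CA1 RNA-seq libraries sequenced on an Illumina HiSeq instrument. Per the labels and the study's methods, alignment was made by the authors with STAR on the mm10 build and reads were assigned to genes by htseq-count, and the deposited values are raw counts. For the young mice the authors deposited FPKM values per locus made with Cufflinks and Cuffdiff. The submitters' processing notes also name CASAVA 1.8.2 and TopHat, without saying for which samples. Of 33 labelled samples 32 had values, and 1 aged WT mouse was not analysed here. Mice were grouped by their labels, 6 APP JQ1, 6 APP vehicle, 4 aged WT vehicle, 8 young JQ1 and 8 young vehicle.

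Reads on no gene, 15.4% to 26.9% of a library, stayed out of library sizes and tests, and symbols covered 99.8% of counts. Counts were tested with edgeR 4.0.16 (TMM, filterByExpr, robust quasi-likelihood test, 3 groups in 1 fit, 16962 genes). FPKM values were tested with limma 3.58.1 (trend and robust) on log2(FPKM + 0.1), for 18420 loci that reached 0.5 FPKM in 8 or more samples. Both ran in R 4.3.3, with Benjamini-Hochberg adjustment over all genes and a threshold of 0.05. Exact permutation tests used numpy 2.4.6 and the 95% intervals scipy 1.17.1, both under Python 3.11.15. Both fits were tested on simulated data. Alternatives were DESeq2 1.42.0, other normalizations, filters and pseudocounts, a replicate block, a GC content and length correction (values for 98.9% of genes) and leaving out each mouse. CPM per kilobase used exonic gene length.

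The numbers in the titles were not used as pairs in the main tests. Members and lists were chosen with earlier results of these data known. Values are given for Gfap, Aldh1l1, every member called, the 3 identity and 3 reactive genes with the largest change in each aged comparison, and members removed by the filter. Of genes in other lists those named were called, at most 6 a list by adjusted p. One further gene is not reported here.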

Additional observations from a re-analysis of the deposited data

Results flagged for a closer look

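In 28 of 175 groups of members' values, 1 mouse stood apart from the others by Dixon's criterion at the 95% level. That level flags about 1 in 20 groups of normally distributed values. The values here were untransformed CPM or FPKM, and the groups share mice, so the 28 cannot be set against that rate. Of the 28, 10 were vehicle-treated APP replicate 1. In that mouse, Aldh1l1 was at 96.7 CPM against 51.4 to 67.2 in the others of its group, Glul was at 758.3 against 1186 to 1304 and Itih3 was at 127.8 against 33.1 to 43.5. Vim was at 452.1 against 53.6 to 129, Serpina3n was at 1018 against 161 to 313 and Cd44 was at 56.12 against 3.61 to 10.8. S100a10 was at 80.45 against 21 to 33.7, Timp1 was at 22.92 against 1.4 to 2.37 and Fbln5 was at 19.56 against 5.75 to 10.5. Aspg was at 61.91 against 11.9 to 30.0. Glul was the one member of the 10 in which it stood below its group.

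In JQ1-treated APP replicate 1, Serpina3n was at 709.5 CPM against 139 to 313 in the others of its group and Timp1 was at 8.105 against 0.40 to 3.24. In JQ1-treated APP replicate 2, Slc4a4 was at 264 CPM against 158 to 186 in the others of its group. In JQ1-treated APP replicate 3, Steap4 was at 7.34 CPM against 0.0666 to 1.25 in the others of its group. In JQ1-treated APP replicate 5, Gja1 was at 166.5 CPM against 232 to 257 in the others of its group. In aged WT replicate 1, Gja1 was at 236.6 CPM against 153 to 161 in the others of its group and S100a10 was at 40.29 against 21.9 to 24.6. In aged WT replicate 3, Gjb6 was at 70.04 CPM against 57.5 to 59.4 in the others of its group.

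In young JQ1-treated replicate 2, Aldh1l1 was at 20.53 FPKM against 13 to 16.6 in the others of its group. In young JQ1-treated replicate 3, Fabp7 was at 13.09 FPKM against 18.6 to 22.6 in the others of its group, S100a10 was at 46.88 against 28.4 to 34.5 and Steap4 was at 0.2311 against 0 to 0.082. In young JQ1-treated replicate 8, Ndrg2 was at 368.3 FPKM against 323 to 339 in the others of its group. In young vehicle-treated replicate 3, Cd44 was at 2.312 FPKM against 0.582 to 1.28 in the others of its group and Osmr was at 1.983 against 1.04 to 1.37. In young vehicle-treated replicate 7, S100b was at 80.38 FPKM against 59.8 to 67.7 in the others of its group, Ndrg2 was at 424.5 against 329 to 369 and Lcn2 was at 0.7091 against 0 to 0.151. Lcn2 and Steap4 did not pass the filter on low values in the young mice.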

How the results depend on the processing

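Of the 35 genes, vehicle-treated APP mice against WT gave 7 calls. DESeq2 called 14, a fit of only these groups 12 (6 of the 7 among them), no filter on low counts 4, and the count ranged from 1 to 10 over fits leaving out 1 mouse. JQ1-treated APP mice against WT gave 9, with 16 by DESeq2, 4 without a filter and 0 to 12 with 1 mouse left out. JQ1 against vehicle in APP mice gave 0, with 2 by DESeq2 and 0 to 1 with 1 mouse left out, and young mice gave 0 under every setting run, leaving out each mouse included. With the replicate block the calls were 0 in vehicle-treated APP mice against WT and 1 in JQ1-treated APP mice against WT, and the same with the GC content and length correction added. Same-numbered aged mice had correlations of their deviations from -0.471 to 0.342 (mean -0.0226), against -0.447 to 0.531 (mean 0.0111) for other numbers. In young mice these were -0.0703 to 0.104 (mean 0.0264) and -0.109 to 0.0904 (mean -0.00374). JQ1- and vehicle-treated APP mice numbered 1, 2 and 4 had 0.328, 0.285 and 0.342, and those numbered 3, 5 and 6 had -0.107, -0.0356 and -0.0691. These values do not decide whether the numbers pair samples. Calls over all genes moved too. In vehicle-treated APP mice against WT they were 436, and 798 by DESeq2, 679 with only these groups, 354 without a filter and 35 with the block. In JQ1-treated APP mice against WT they were 349, and 800 by DESeq2, 239 without a filter and 21 with the block. In JQ1 against vehicle they were 184, and 749 by DESeq2, 135 without a filter, 87 with the block and 42 with the GC content and length correction. That correction gave 452 in vehicle-treated APP mice against WT and 517 in JQ1-treated APP mice against WT. The cause of these differences was not tested.

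Over single genes and settings that kept all mice or left out the doubted libraries together, vehicle-treated APP against WT kept its side of the threshold in 280, passed newly in 13 and no longer passed in 19. JQ1-treated APP against WT gave 273, 10 and 29, and JQ1 against vehicle in APP mice 309, 2 and 0. No called value changed sign. The 4 WT mice limit the precision, and for Lcn2 and Steap4 the few WT reads do.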
